A study of Mus musculus with 30 samples.

Results

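Cxcl1, Cxcl2 and Cxcl3 encode the CXC chemokines that draw neutrophils into inflamed tissue in the mouse. They were taken from the gene table by their symbols, which gave 3 of 25611 gene rows, 1 row each. The members were chosen by measured values: the rise of Cxcl2 after 30 min of ovalbumin and the higher level of Cxcl1 in knockout cells after 4 h of apoptotic Jurkat cells. These contrasts are therefore described without a test for all 3 genes, and so is any difference between genotypes in the response built on them. Contrasts that set Cxcl2 at 30 min of ovalbumin, or Cxcl1 at 4 h of Jurkat cells, against another time or treatment of the same genotype are described without a test for that gene. Cxcl2 between genotypes at 30 min of ovalbumin is described without a test too.

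RNA was sequenced from 30 libraries of dendritic cells, grown from bone marrow of Rubcn knockout (KO) or wild-type (WT) mice in 200 ng/ml of the growth factor FLT3L for 6 to 7 days. Rubcn encodes Rubicon, a protein needed for LC3-associated phagocytosis, in which components of the autophagy machinery act on a phagosome. The 10 groups of 3 libraries were untreated KO and WT cells, cells incubated with the protein ovalbumin (OVA) and cells incubated with apoptotic cells of the human T-cell leukaemia line Jurkat, each stimulus for 30 min or 4 h. The titles do not say whether the 3 libraries of a group came from separate mice or cultures, so p-values measure only the spread between these libraries, which may be technical.

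The 3 chemokines are small secreted proteins that carry the ELR motif and act on neutrophils through the receptor Cxcr2. In myeloid cells they are early targets of NF-κB downstream of Toll-like and interleukin 1 receptors, and their short-lived transcripts are cleared by decay factors such as Zfp36 (tristetraprolin). Dendritic cells and macrophages release them within hours of sensing microbes or damaged cells.

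The genes lie together on the plus strand of chromosome 5 in the mm10 build. Cxcl3 (Entrez gene 330122) spans chr5:90786101-90788093, Cxcl1 (14825) spans chr5:90891245-90893115, and Cxcl2 (20310) spans chr5:90903899-90905938. Cxcl1 and Cxcl2 are direct neighbours, 10783 bp apart. The cluster also holds Cxcl5, Ppbp, Pf4 and Cxcl15 and covers 146641 bp from Cxcl5 to Cxcl2. Each of the 3 transcripts has 4 exons, with spliced lengths of 953 bases for Cxcl1, 1109 for Cxcl2 and 1016 for Cxcl3. How the counting treated reads shared by such related genes, or reads from the human cells, is not given in the sources used here, so a part of each count is uncertain.

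The promoters are shown because the 3 neighbours differed in the size and the time of their response. Each line gives the 120 bases before the annotated transcript start, from RefSeq on GRCm38.p6, plus strand, with capitals on the first 10 bases of the longest run that all 3 share, an NF-κB type site (GGGAATTTCC), and on the next longest shared run, a TATA box (ATAAAAGG). The windows are chr5:90891125-90891244 for Cxcl1, chr5:90903779-90903898 for Cxcl2 and chr5:90785981-90786100 for Cxcl3.
Cxcl1: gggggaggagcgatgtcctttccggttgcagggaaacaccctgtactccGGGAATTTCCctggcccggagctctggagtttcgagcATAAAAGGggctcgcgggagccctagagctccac
Cxcl2: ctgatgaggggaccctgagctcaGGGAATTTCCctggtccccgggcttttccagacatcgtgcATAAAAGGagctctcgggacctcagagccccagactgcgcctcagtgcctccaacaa
Cxcl3: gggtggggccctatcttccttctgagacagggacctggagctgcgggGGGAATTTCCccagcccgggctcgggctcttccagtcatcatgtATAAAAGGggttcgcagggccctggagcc

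The same 10 letters stood in all 3 promoters, with their first base 71 bases before the start in Cxcl1, 97 in Cxcl2 and 73 in Cxcl3. Of 32851 RefSeq promoters searched over 250 bases on both strands, 28 held GGGAATTTCC, a share of 0.0852%, and 507 held ATAAAAGG, a share of 1.54%. The first base of ATAAAAGG stood 34, 57 and 29 bases before the start in Cxcl1, Cxcl2 and Cxcl3. These distances depend on the annotated start, most of all for Cxcl2. RefSeq starts it at 90903899 and GENCODE at 90903871, while the GENCODE starts of Cxcl1 (90891241) and Cxcl3 (90786103) lie close to those of RefSeq. The larger distances of Cxcl2 are therefore not read as a different layout. Both motifs were taken from these windows, they do not overlap each other, and the matches only describe the windows. Aligned on the NF-κB type site, 42.6% of 94 bases were identical between Cxcl1 and Cxcl2, 42.6% between Cxcl1 and Cxcl3, and 30.9% between Cxcl2 and Cxcl3. The shared run around the NF-κB type site was gggaatttccc, 11 bases long, or the site and 1 more base. In the same cluster, the promoters of Ppbp, Pf4 and Cxcl15 held no GGGAATTTCC in these windows. Cxcl5 had no promoter among those searched, so nothing is known of the motif there.

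The libraries held between 9.73 M and 51.6 M counts (median 44.9 M), and the shallowest, KO replicate 3 of 30 min OVA, stood below a next lowest of 38.7 M. Levels are CPM, each gene's counts per 1 M counts of its library, on library sizes scaled with TMM, a method that takes most genes as equal between libraries. Rubcn itself was reduced but not absent at the level of RNA: KO libraries held 73.6% of the WT mean in untreated cells and between 78.4% and 84.7% in the other 4 conditions, with no overlap in any of them. All 14 dendritic cell marker genes, among them Flt3, Itgax and Zbtb46, were at 1 CPM or more in every group. Of 16 neutrophil marker genes, 12 or 13 were at 1 CPM or more in each group, and their summed level was 198.5 to 271.0 CPM. Ly6g was among those under 1 CPM.

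All 3 chemokines were close to silent in untreated cells. In untreated WT libraries Cxcl1 stood at 0.378, 0.582 and 0.429 CPM, from 17, 27 and 21 counts. Untreated WT Cxcl2 was 0.957, 0.367 and 0.612 CPM, and Cxcl3 rested on 6, 2 and 11 counts. At counts this small a change below several-fold in Cxcl3 was not detectable at this depth. The plot of levels by library shows the path of each gene from there.

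**Figure D1:**
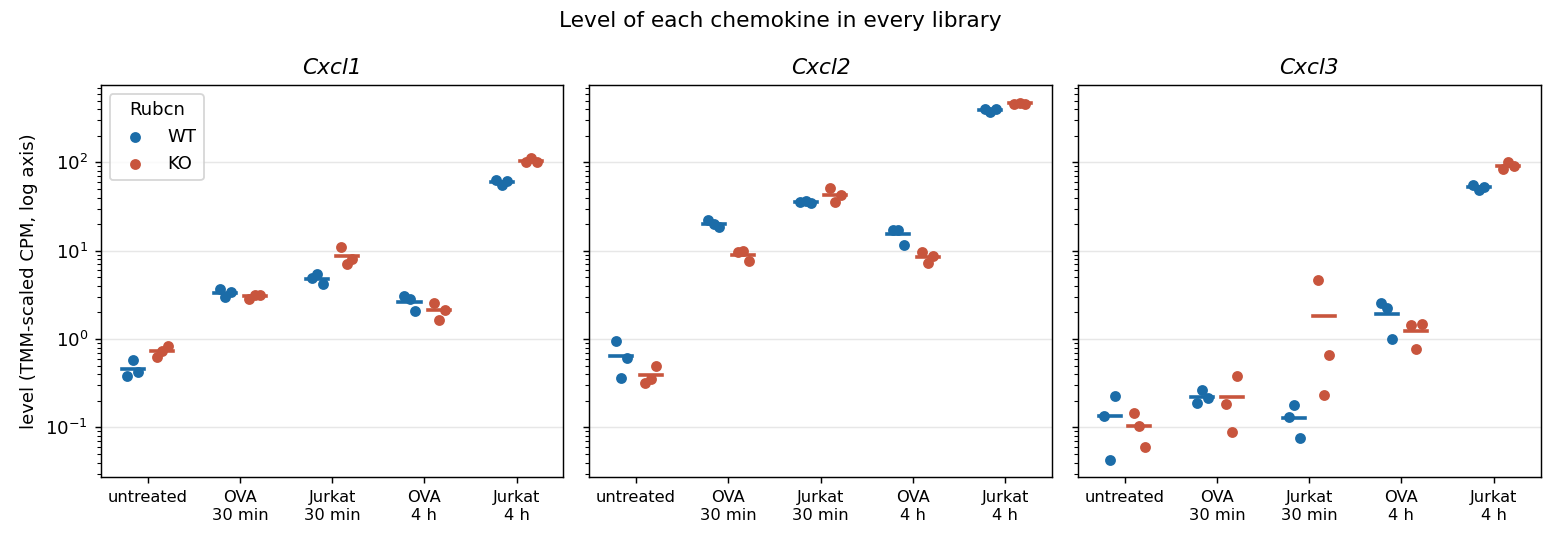
Level of Cxcl1, Cxcl2 and Cxcl3 in each of the 30 libraries, in TMM-scaled CPM on a log axis, by condition; points are libraries of WT (blue) and KO (red) cells and bars are group means of 3. Cxcl1 and Cxcl2 stood above untreated cells within 30 min of either stimulus, Cxcl3 in WT cells was still near its untreated level then, and all 3 were highest at 4 h of Jurkat cells.

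After 30 min of OVA, WT Cxcl2 reached 22.1, 19.9 and 18.4 CPM against a mean of 0.645 ± 0.297 (SD, n = 3) in untreated cells. That is a log2 fold change of 4.96, the highest of the 14808 genes tested in that contrast, and it is in part what chose the gene. In KO cells the same contrast gave 4.58 and rank 4, from 0.389 ± 0.0983 to 9.05 ± 1.16 CPM. Cxcl1 moved less in the same libraries, with log2 fold changes of 2.85 in WT and 2.05 in KO cells. WT Cxcl1 stood at 3.70, 2.98 and 3.39 CPM. Cxcl3 remained at 9, 13 and 10 counts in WT cells, a log2 fold change of 0.70 with overlapping libraries. Of the 3 members, Cxcl1 and Cxcl2 did not overlap between OVA and untreated libraries in either genotype, where 24.6% of all genes did not in WT and 22.2% in KO cells, and nothing is read from these counts because the contrast chose the members.

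Apoptotic Jurkat cells for 30 min gave a larger early rise of the same 2 genes in WT cells. WT Cxcl2 was 35.8, 36.3 and 34.5 CPM, a tight group far above every untreated library (log2 fold change 5.78, SE 0.196, FDR 5.35e-19). WT Cxcl1 was 4.88, 5.46 and 4.17 CPM (log2 fold change 3.37, SE 0.229, FDR 6.35e-12). FDR is the Benjamini-Hochberg adjusted p of edgeR's quasi-likelihood test over all 14808 genes, and a call is an FDR under 0.05. WT Cxcl3 stayed at 6, 8 and 4 counts, within the untreated range, with a log2 fold change of -0.10 (95% confidence interval -3.30 to 3.09, FDR 0.971). So 2 of 3 members were called higher, where 14.2% of all genes were. Bulk RNA gives the sum over all cells of a culture, so more cells that express a gene and more RNA per cell cannot be told apart here or in any later comparison.

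At 30 min the Jurkat libraries stood above the OVA libraries for Cxcl1 in both genotypes. The log2 difference was 0.52 in WT (SE 0.153, FDR 0.0125, no overlap) and 1.53 in KO cells (SE 0.156, FDR 7.76e-08). In WT the call was lost without Jurkat replicate 2 (0.43, FDR 0.0772) or without OVA replicate 2 (0.44, FDR 0.0749). Cxcl2 differed by 0.82 in WT and 2.19 in KO cells, given as a description, with no overlap in either genotype. For Cxcl3 the difference was -0.81 in WT cells (FDR 0.731), between 32 counts in all with OVA and 18 with Jurkat cells. In KO cells it was 3.48 (SE 0.891, FDR 0.0116), with overlapping libraries. The KO value fell to 1.42 (FDR 0.249) without KO Jurkat replicate 1. Its FDR was 0.0601 without KO OVA replicate 1 and 0.0859 without KO OVA replicate 2. Of the 2 members tested in this comparison, 1 was called higher in WT and 2 in KO cells, where 11.9% and 5.3% of all genes were.

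Between 30 min and 4 h of OVA the genes parted. WT Cxcl1 was 3.03, 2.81 and 2.07 CPM at 4 h against 3.35 ± 0.363 at 30 min, and WT Cxcl2 was 17.1, 17.03 and 11.7 CPM against 20.1 ± 1.83. The log2 difference of Cxcl1 did not pass the test in WT (-0.36, SE 0.170, FDR 0.114) or KO cells (-0.49, SE 0.194, FDR 0.0997). Cxcl2 differed by -0.41 in WT and -0.13 in KO cells, as a description. Cxcl3 went the other way: WT libraries rose from 9, 13 and 10 counts to 112, 105 and 54, with no overlap (log2 difference 3.08, SE 0.738, FDR 0.00218). In KO cells Cxcl3 rose from 9, 4 and 4 counts to 78, 32 and 61 (log2 difference 2.92, SE 0.973, FDR 0.0455). The KO call was lost when any of 5 of its 6 libraries was left out, with values from 2.49 to 3.16 and FDRs up to 0.193. Of the members tested, 1 of 2 was called higher in WT and 1 of 2 in KO cells, where 14.9% and 6.5% of all genes were.

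Against untreated cells, all 3 members were called higher at 4 h of OVA in both genotypes, where 11.9% of all genes were in WT and 5.94% in KO cells. WT log2 fold changes were 2.49 for Cxcl1 (SE 0.258, FDR 2.45e-08), 4.56 for Cxcl2 (SE 0.217, FDR 2.29e-15) and 3.78 for Cxcl3 (SE 0.830, FDR 0.00112). KO log2 fold changes were 1.56 for Cxcl1 (SE 0.241, FDR 4.85e-05), 4.45 for Cxcl2 (SE 0.261, FDR 9.44e-13) and 3.56 for Cxcl3 (SE 0.965, FDR 0.0141). The KO call of Cxcl3 was lost without KO OVA replicate 1 (3.42, FDR 0.0581) or without untreated KO replicate 3 (3.29, FDR 0.0592). By size of the WT change Cxcl3 stood at rank 291 of 14808 at 30 min of OVA and at rank 24 at 4 h. The treated groups share the same untreated libraries.

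Apoptotic Jurkat cells for 4 h gave the highest level of every member in both genotypes. WT Cxcl2 reached 400.5, 374.7 and 397.0 CPM, WT Cxcl1 63.4, 54.9 and 61.6 CPM, and WT Cxcl3 56.2, 48.2 and 52.1 CPM. None of these libraries overlapped any library of another treatment. Against untreated WT cells the log2 fold changes were 9.24 for Cxcl2 (SE 0.178, FDR 7.18e-27), 8.56 for Cxcl3 (SE 0.487, FDR 7.92e-16) and, as a description, 7.01 for Cxcl1. In KO cells they were 10.20 for Cxcl2 (FDR 3.63e-27), 9.77 for Cxcl3 (FDR 2.85e-17) and 7.15 for Cxcl1, the last again as a description. Both of the 2 members tested were called higher in each genotype, where 38.9% of all genes were in WT and 37.5% in KO cells. Scaled to total counts in place of TMM, the median change of all genes at 4 h of Jurkat cells was -0.42 in WT and -0.37 in KO cells on the log2 scale, and the members kept their direction.

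The steps to this level differed in size. From 30 min to 4 h of Jurkat cells WT Cxcl2 rose by a log2 difference of 3.46 (SE 0.111, FDR 7.6e-22), and WT Cxcl1 differed by 3.64, given without a test. WT Cxcl3 rose by 8.66 (SE 0.491, FDR 7.5e-16), and almost all of its rise came after 30 min. KO cells gave 3.58 for Cxcl1 (no test), 3.43 for Cxcl2 (FDR 1.01e-21) and 5.65 for Cxcl3 (FDR 9.7e-16). The last value was 7.71 without KO replicate 1 of 30 min Jurkat. Both members tested were called higher in each genotype, where 37.9% of all genes were in WT and 36.8% in KO cells.

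Jurkat cells exceeded OVA at 4 h by similar log2 differences in WT cells: 4.52 for Cxcl1 (no test), 4.69 for Cxcl2 (SE 0.120, FDR 9.3e-24) and 4.78 for Cxcl3 (SE 0.323, FDR 5.34e-14). In KO cells the differences were 5.60 for Cxcl1 (no test), 5.75 for Cxcl2 (FDR 4.88e-25) and 6.21 for Cxcl3 (FDR 4.74e-16). Both members tested were called, where 37.2% of all genes were higher in WT and 36.3% in KO cells. Markers of T-lineage cells, the lineage of the added human cells, moved with this comparison. The whole list of 30 genes, of which 27 were counted in the sum, held 323.2 CPM in untreated WT cells and 464.1 at 4 h of Jurkat cells, and 330.6 and 390.9 in KO cells. Of its 26 genes tested, 22 were called higher and 4 lower at 4 h of Jurkat cells than in untreated WT cells, and 18 higher and 5 lower in KO cells. Of all genes, 38.9% were called higher in WT and 37.5% in KO cells in these contrasts. Over the 14 of its genes that stood under 1 CPM in untreated cells, a subset chosen for that low level, the summed level was 3.39 CPM in untreated WT cells and 3.09 at 4 h of OVA. With Jurkat cells it was 41.0 ± 0.927 at 30 min and 106.8 ± 15.8 at 4 h in WT, and 26.0 ± 5.79 and 73.2 ± 9.37 in KO cells. Beside the sum of 41.0 CPM, WT Cxcl3 at 30 min of Jurkat cells held 18 counts over 3 libraries. The part of Jurkat transcripts in the chemokine counts was not tested.

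Levels can be set between genes only per length. Per kilobase of spliced transcript, WT cells at 4 h of Jurkat cells held 352.3 ± 12.6 CPM of Cxcl2, 62.9 ± 4.67 of Cxcl1 and 51.3 ± 3.92 of Cxcl3. In KO cells the order was the same, with 418.7 ± 7.18 for Cxcl2, 110.1 ± 5.97 for Cxcl1 and 90.7 ± 9.15 for Cxcl3. At 30 min of Jurkat cells WT Cxcl2 stood at 32.0 CPM per kilobase, Cxcl1 at 5.08 and Cxcl3 at 0.127. Cxcl2 was thus the most abundant transcript of the 3 in every treated group, while in untreated KO cells Cxcl1 stood above it (0.768 against 0.351 CPM per kilobase).

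Ordered by level, the 10 groups of Cxcl1 ran from untreated WT through untreated KO (0.732 ± 0.106 CPM), 4 h OVA (2.13 ± 0.466 in KO, 2.64 ± 0.501 in WT), 30 min OVA (3.08 ± 0.194 in KO, 3.35 ± 0.363 in WT) and 30 min Jurkat (4.84 ± 0.649 in WT, 8.76 ± 2.05 in KO) to 4 h Jurkat. Among these neighbours only the 4 OVA groups overlapped. For Cxcl2 the order was untreated KO, untreated WT, 4 h OVA KO (8.55 ± 1.28), 30 min OVA KO (9.05 ± 1.16), 4 h OVA WT (15.3 ± 3.12), 30 min OVA WT (20.1 ± 1.83), 30 min Jurkat WT (35.5 ± 0.952) and KO (43.1 ± 7.84), then 4 h Jurkat. The untreated pair, the KO OVA pair and the 30 min Jurkat pair overlapped. For Cxcl3 the lowest 5 groups, untreated and 30 min OVA of both genotypes and 30 min Jurkat WT, lay between 0.104 and 0.222 CPM and were not ordered beyond their spread. The next 3 by mean, 4 h OVA KO (1.23 ± 0.400), 30 min Jurkat KO (1.85 ± 2.44) and 4 h OVA WT (1.94 ± 0.827), overlapped too, and 4 h Jurkat stood alone. The lowest library of 30 min Jurkat KO (0.230 CPM) also lay below the highest of 30 min OVA KO (0.386 CPM).

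Knockout and wild-type cells differed in the chemokines after both stimuli (plot of knockout against wild type). With OVA, Cxcl2 was lower in KO cells at both times, the 30 min value being a description. With Jurkat cells at 30 min, Cxcl1 was higher in KO cells. Cxcl3 was higher too, but the size and the call of its difference rested on 1 library. In untreated cells none of the 3 was called, where 9.97% of all genes were. The untreated differences were still 0.66 for Cxcl1 and -0.71 for Cxcl2. No tested difference in response between genotypes was called for any member, so the calls alone do not set treated apart from untreated cells.

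**Figure D2:**
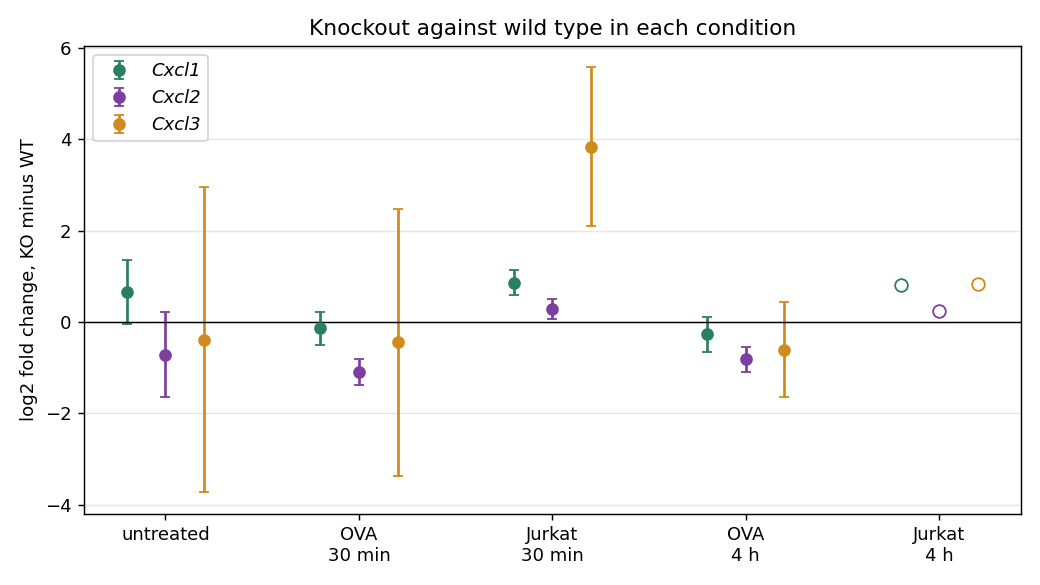
Log2 fold change of KO against WT cells in each condition for Cxcl1 (green), Cxcl2 (purple) and Cxcl3 (orange), from 3 libraries a group; bars are 95% confidence intervals, and open circles at 4 h of Jurkat cells are given without an interval because that contrast chose the members. Cxcl2 lies at -1.10 and -0.82 with OVA, Cxcl1 at 0.86 with 30 min of Jurkat cells, and the intervals of Cxcl3 are wide wherever its counts are few. The interval of Cxcl2 at 30 min of OVA is not read, since its level there is part of what chose the gene.

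In untreated cells KO Cxcl1 was 0.630, 0.726 and 0.842 CPM, above all 3 WT libraries, but at 30 to 42 counts the log2 difference of 0.66 was not called (SE 0.339, FDR 0.261). Cxcl2 differed by -0.71 (SE 0.457, FDR 0.400) and Cxcl3 by -0.39 (SE 1.63, FDR 0.933), both with overlapping libraries. The 95% confidence intervals were -0.03 to 1.36 for Cxcl1 and -1.65 to 0.23 for Cxcl2, so differences of either sign were not excluded at this depth.

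After 30 min of OVA, Cxcl2 in the KO libraries was 9.56, 9.86 and 7.72 CPM, from 469, 451 and 80 counts. The WT libraries held 22.1, 19.9 and 18.4 CPM, and every KO library lay below every WT library. KO cells held 45.0% of the WT mean (log2 fold change -1.10). This is given as a description because the Cxcl2 level of these libraries is part of what chose the gene. The value stayed between -1.16 and -1.02 when each library was left out in turn, including the shallow KO replicate 3. Cxcl1 in the same libraries was 2.85, 3.19 and 3.19 CPM in KO and overlapped WT (-0.14, 95% confidence interval -0.51 to 0.22, FDR 0.659). Cxcl3, with at most 13 counts a library, differed by -0.45 (FDR 0.889). Neither Cxcl1 nor Cxcl3 was called, where 12.4% of all genes were.

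After 4 h of OVA, KO Cxcl2 was 9.72, 7.19 and 8.75 CPM and again lay below all WT libraries (17.1, 17.03 and 11.7 CPM). KO cells held 56.0% of the WT mean (log2 fold change -0.82, SE 0.136, FDR 8.85e-05). Cxcl1 at 2.59, 1.66 and 2.15 CPM overlapped WT (-0.27, 95% confidence interval -0.65 to 0.11, FDR 0.412). Cxcl3 at 1.43, 0.769 and 1.49 CPM overlapped WT too (-0.60, 95% confidence interval -1.65 to 0.44, FDR 0.522). Here 1 of 3 members was called, where 12.6% of all genes were.

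After 30 min of Jurkat cells the picture was another one. KO Cxcl1 was 11.1, 7.09 and 8.14 CPM, each above the WT libraries at 4.88, 5.46 and 4.17 CPM (log2 fold change 0.86, SE 0.133, FDR 8.12e-05). KO Cxcl2 was 51.1, 35.4 and 42.8 CPM and overlapped WT (0.28, SE 0.109, FDR 0.111), and without KO replicate 2 it was called (0.40, FDR 0.0212). KO Cxcl3 was 4.66, 0.230 and 0.651 CPM, from 215, 11 and 30 counts, against 6, 8 and 4 counts in WT. The 3 KO libraries all lay above WT, but they spread widely, and replicate 1 held most of the counts. The log2 fold change of 3.83 (SE 0.847, FDR 0.00386) became 1.77 (FDR 0.110) without that library. In all, 2 of 3 members were called, where 9.25% of all genes were.

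KO replicate 1 of 30 min Jurkat stood high in other inflammatory genes as well. It was the highest of its 3 libraries in 14 of 16 early inflammatory mediators (87.5%), a list of cytokine, chemokine and enzyme genes, where it was the highest in 33.7% of all genes. Other libraries led this list in their groups too: WT replicate 2 of 30 min Jurkat in 12 of 16 (75%) and WT replicate 1 of 30 min OVA in 10 of 16 (62.5%). Its part in the higher Cxcl1 of the group can be measured: without it Cxcl1 differed by 0.66, the lowest value when any library was left out, and the largest FDR over all libraries left out was 0.00166.

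At 4 h of Jurkat cells KO Cxcl1 was 101.8, 111.5 and 101.5 CPM against 60.0 ± 4.45 in WT, a log2 difference of 0.81. This is the value that chose the members, and it stood beside a Cxcl1 difference of 0.66 in untreated cells that was not called. KO Cxcl3 was 83.2, 101.8 and 91.6 CPM against 52.1 ± 3.99, a difference of 0.82. KO Cxcl2 was 457.5, 473.1 and 462.5 CPM against 390.7 ± 13.98, a difference of 0.25. None of the 3 overlapped between genotypes, as was so for 36.5% of all genes, and 22.9% of all genes were called in this contrast. KO replicate 2, the highest KO library for each gene, differed most in its counts from the others of its group. With each library left out in turn, the differences ran from 0.75 to 0.85 for Cxcl1, 0.22 to 0.27 for Cxcl2 and 0.74 to 0.89 for Cxcl3. The sum of the 14 T-lineage genes low in untreated cells was 73.2 CPM in KO and 106.8 CPM in WT libraries here, and its part was not tested.

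Whether the response to a stimulus differed between genotypes was tested by the difference of the 2 changes from untreated cells. For 30 min of OVA, given without a test of the members, it was -0.80 for Cxcl1, -0.38 for Cxcl2 and -0.06 for Cxcl3. None of the 14808 genes was called (0%) by edgeR or by DESeq2, although 795 genes had an unadjusted edgeR p under 0.05. For 30 min of Jurkat cells it was 0.20 for Cxcl1, 0.99 for Cxcl2 and 4.22 for Cxcl3 (FDRs 0.959, 0.658 and 0.664), where 0.00675% of all genes were called. For 4 h of OVA it was -0.93 for Cxcl1 (SE 0.387, FDR 0.608), -0.11 for Cxcl2 (FDR 0.993) and -0.22 for Cxcl3, where 0.0405% of all genes were called. For 4 h of Jurkat cells, given without a test of the members, it was 0.15 for Cxcl1, 0.96 for Cxcl2 and 1.21 for Cxcl3.

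The genotype difference can also be set between the 2 stimuli at 30 min, which leaves the untreated cells out. This contrast was chosen after the values had been seen. KO minus WT was higher with Jurkat cells than with OVA by 1.37 on the log2 scale for Cxcl2, which is given without a test. The value was 1.004 for Cxcl1 (SE 0.222, FDR 0.0614) and 4.28 for Cxcl3 (SE 1.75, FDR 0.310). Neither of these 2 was called, where 0.0743% of all genes were. Cxcl1 was called without KO Jurkat replicate 2 (1.14, FDR 0.00815).

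Counting Cxcl2 against Cxcl1 within a library removes depth and scaling. This ratio was looked at after the levels had been seen and is given without a test. In WT cells it was 6.03 ± 0.615 Cxcl2 counts per Cxcl1 count at 30 min of OVA, 7.42 ± 0.815 at 30 min of Jurkat cells, 5.78 ± 0.250 after 4 h of OVA and 6.53 ± 0.261 after 4 h of Jurkat cells. In KO cells the same ratios were 2.95 ± 0.477, 4.96 ± 0.321, 4.05 ± 0.292 and 4.43 ± 0.166. Every KO library lay below every WT library of its condition, untreated cells included, where KO reached at most 0.595 and WT at least 0.630. The share of other gene pairs without overlap was not computed, so nothing is read from this separation. The ratio describes the balance of the 2 genes and does not show which of them changed.

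**Figure D3:**
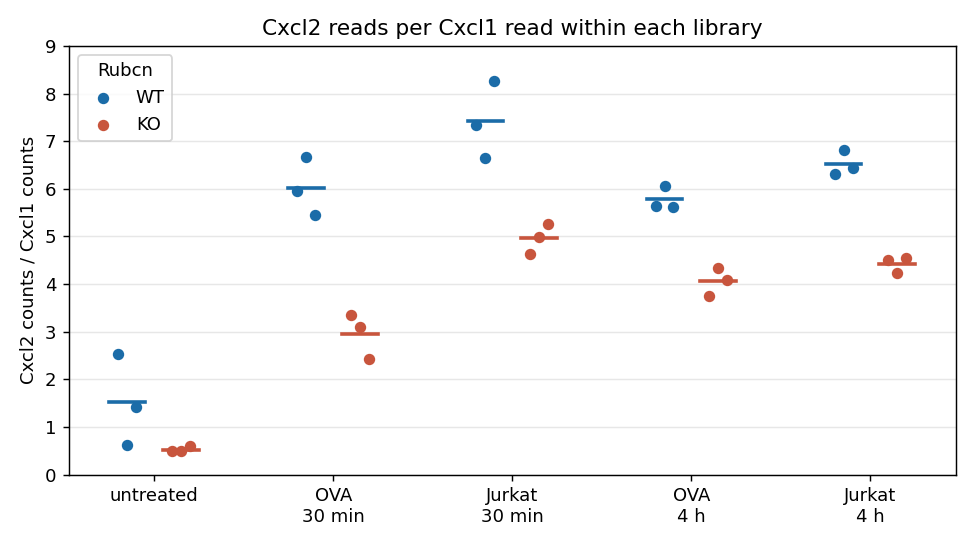
Cxcl2 counts divided by Cxcl1 counts in each library, by condition, for WT (blue) and KO (red) cells; bars are means of 3 libraries. KO libraries lie below WT libraries in all 5 conditions, with means of 2.95 to 4.96 against 5.78 to 7.42 in the treated groups.

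The ratio of Cxcl3 to Cxcl1 counts was higher at 4 h than at 30 min with either stimulus in both genotypes. It was 0.0260 ± 0.00756 in WT cells at 30 min of Jurkat cells and 0.870 ± 0.0219 at 4 h. KO cells at 4 h of Jurkat cells gave 0.877 ± 0.0521, and the libraries of the genotypes overlapped. At 30 min of Jurkat cells KO libraries spread from 0.0324 to 0.422. With OVA the WT ratio was 0.0675 ± 0.0196 at 30 min and 0.711 ± 0.199 at 4 h, and the KO ratio 0.0710 ± 0.0473 and 0.570 ± 0.116. Untreated WT cells, with few counts of either gene, gave 0.317 ± 0.227, above both 30 min values.

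Genes whose pattern was most like each chemokine were ranked by the correlation of the 10 group means of log2 CPM among 10455 genes of at least 5 CPM in their highest group. The 10 points share the large step at 4 h of Jurkat cells, so all of these correlations are high, and they are given as a description. Tnf, the inflammatory cytokine, came first for Cxcl1 (r = 0.989 over means, 0.987 over 30 libraries) and for Cxcl2 (0.970 and 0.967). Cxcl1 was next followed by Arf6, Yrdc and Pmpca, and Cxcl2 by Rpp30, Cxcl1 itself (0.959) and Ddx3x. The list of Cxcl3 held other genes: the interferon-inducible chemokine Cxcl9 (0.992 and 0.986), Shisa3, Tarm1 and Cxcl10 (0.990 and 0.983). Among the members r was 0.959 for Cxcl1 with Cxcl2, 0.886 for Cxcl1 with Cxcl3 and 0.810 for Cxcl2 with Cxcl3.

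**Figure D4:**
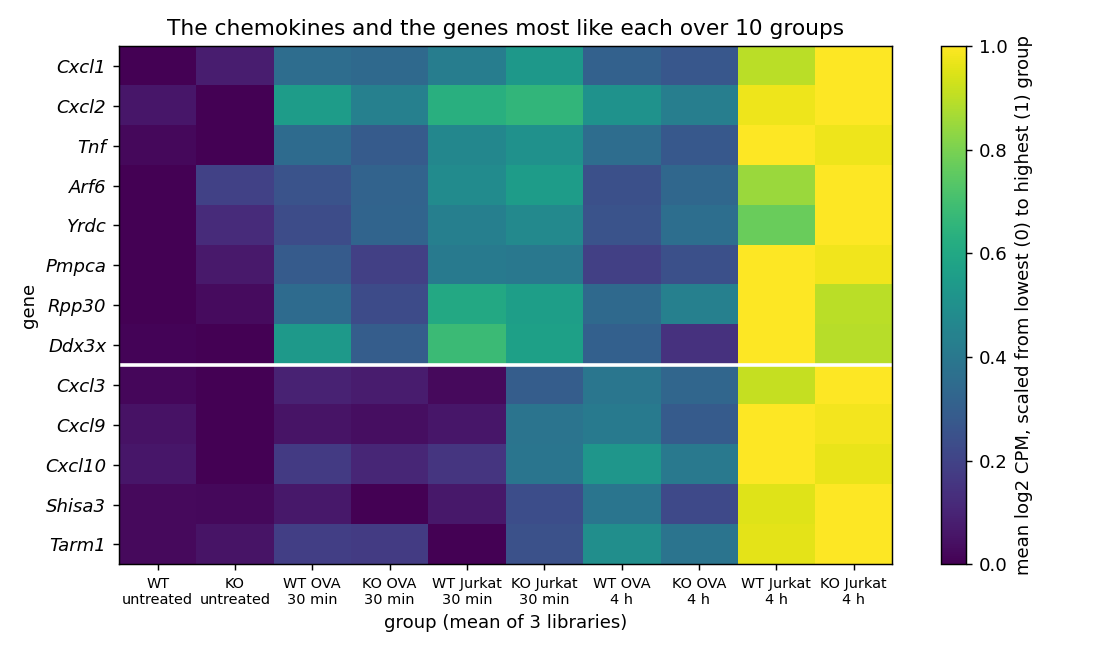
Mean log2 CPM of the chemokines and of the 4 genes most like each in the 10 groups, scaled for each gene from its lowest (0, dark) to its highest group (1, bright); the white line parts Cxcl1, Cxcl2 and their likes from Cxcl3 and its likes. The upper genes are raised at 30 min in WT and KO cells, while the lower genes are low at 30 min in WT cells. The lower genes stand higher in KO cells at 30 min of Jurkat cells, where replicate 1 is the highest library for each, and in both genotypes at 4 h. Tarm1 in WT cells at 30 min of OVA (-2.16) lies close to its KO level at 30 min of Jurkat cells (-1.72).

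Cxcl9 and Cxcl10 stood higher in KO cells at 30 min of Jurkat cells. Cxcl9 was 24.4 CPM in KO and 1.16 in WT cells (log2 difference 4.40, FDR 6.52e-05), and Cxcl10 was 44.1 against 4.60 CPM (3.26, FDR 5.76e-05). KO replicate 1 was far above the other 2, at 59.8 CPM of Cxcl9 against 3.81 and 9.62, and without it the differences were 2.54 for Cxcl9 (FDR 3.47e-05) and 1.69 for Cxcl10 (FDR 2.01e-05). At 30 min of OVA neither was called, with -0.26 for Cxcl9 (FDR 0.933) and -0.68 for Cxcl10 (FDR 0.547), although Cxcl10 was lower in all 3 KO libraries. Tnf, which follows Cxcl1 and Cxcl2, was 10.5 CPM in untreated WT cells, 54.1 at 30 min of OVA and 95.6 at 30 min of Jurkat cells. KO minus WT for Tnf was -0.47 with OVA at 30 min (FDR 0.00104) and -0.61 at 4 h (FDR 2.16e-05). With Jurkat cells at 30 min it was 0.34 (FDR 0.0123), a call that was lost without KO replicate 1 (0.26), KO replicate 3 (0.28) or WT replicate 3 (0.29). At 4 h of Jurkat cells KO minus WT was -0.19 for Tnf (FDR 0.110), -0.19 for Cxcl9 (FDR 0.758) and -0.36 for Cxcl10 (FDR 0.523), none of them called. Cxcl1 (0.81) and Cxcl3 (0.82), given without a test, had the other sign there.

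The other genes of the pathway were taken from lists written with earlier results of these data known. Of the other chemokines of the cluster, Cxcl15 had no count and Cxcl5, Ppbp and Pf4 were tested. In WT cells at 4 h of Jurkat cells Cxcl5, a further ELR chemokine, rose from 0.186 to 1.76 CPM (log2 fold change 3.23, FDR 6.66e-10). Ppbp rose from 2.87 to 5.02 CPM and Pf4, the platelet factor without the ELR motif, from 12.1 to 23.6 CPM. None of these 3 was called between genotypes in any condition. Of the receptors, Cxcr1 had at most 5 counts, and Cxcr2, the receptor of the 3 members, fell from 1.72 to 0.882 CPM in WT cells at 4 h of Jurkat cells (-0.96, FDR 1.08e-05). At that time Cxcr2 stood higher in KO cells (1.48 CPM, log2 difference 0.75, FDR 0.0032).

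Of 16 early inflammatory mediators, among them Tnf, Il1b, Il6, Ccl3, Ccl4, Ptgs2 and Acod1, all were tested. In WT cells 8 rose and none fell at 30 min of OVA, where 5.51% of all genes rose. With 30 min of Jurkat cells 9 rose (14.2% of all genes), with 4 h of OVA 13 (11.9%) and with 4 h of Jurkat cells all 16 (38.9%). In KO cells 4 rose at 30 min of OVA, where 1.88% of all genes rose, and 14 at 30 min of Jurkat cells, where 8.72% did. With 4 h of OVA 10 rose in KO cells (5.94% of all genes), and with 4 h of Jurkat cells all 16 (37.5%). At 30 min of Jurkat cells, 13 of 16 were higher in KO cells and none lower, where 9.25% of all genes were called in either direction. The median log2 difference was 0.74 beside 0.00 over all genes. Examples are Il1b, a cytokine that induces the 3 members in many cells (89.2 against 47.5 CPM, 0.91, FDR 0.000139), Ptgs2, the inducible cyclooxygenase (16.8 against 8.72 CPM, 0.95, FDR 0.000333), and Il6 (3.26 against 0.470 CPM, 2.78, FDR 0.00121). The Il6 difference was 1.47 (FDR 0.0094) without KO replicate 1. The 13 became 6 without KO replicate 1, 7 without WT replicate 3 and 5 when only the compared groups were fitted. After 4 h of OVA 1 was higher and 5 were lower in KO cells, where 12.6% of all genes were called in either direction. The 5 were Tnf, Icam1, Acod1 and the chemokines Ccl3 (-0.71, FDR 0.00215) and Ccl4 (-1.37, FDR 1.54e-06).

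Regulators of NF-κB and of mRNA stability were also measured. The list of 14 held NF-κB inhibitors and mRNA decay factors, but also Nfkbiz and Elavl1, which are not plain members of either class. Of the 14 genes, 12 rose and 1 fell in WT cells at 4 h of OVA, where 11.9% of all genes rose. Between genotypes at that time 11 were lower and 1 higher in KO cells, where 12.6% of all genes were called in either direction, with a median log2 difference of -0.32 beside 0.00 over all genes. In the other conditions fewer were called. In untreated cells 3 were lower (9.97% of all genes called), and at 30 min of OVA 5 were lower (12.4%). With Jurkat cells 1 was lower and 2 higher at 30 min (9.25%), and 3 were lower and 1 higher at 4 h (22.9%). Nfkbia, which encodes the inhibitor IκBα, was 153.7 CPM in KO and 208.7 in WT cells (-0.44, FDR 5.7e-07). Its promoter was the only 1 of 12 searched in this list to hold GGGAATTTCC. Of the early inflammatory mediators 0 of 11 promoters searched held it, and of the NF-κB and receptor signalling genes 1 of 17 (Map3k7). Zfp36, the decay factor of chemokine transcripts, was 215.4 against 281.4 CPM (-0.39, FDR 4.93e-06), and Tnfaip3, the ubiquitin-editing inhibitor A20, was 85.1 against 121.2 CPM (-0.51, FDR 1.97e-06). Of 24 genes of NF-κB and receptor signalling, 8 were lower and 1 higher in KO cells at 4 h of OVA (12.6% of all genes called), the latter being the interleukin 1 receptor Il1r1 (12.4 against 8.35 CPM, 0.57, FDR 3.61e-06). Elsewhere 3 were lower in untreated cells, 4 at 30 min of OVA, none at 30 min of Jurkat cells (3 without KO replicate 1) and 4 at 4 h of Jurkat cells, each beside 1 higher. The shares of all genes called in these conditions are those given above for the list of 14. Il1r1 was higher in KO cells in all 5 conditions, by 0.49 to 0.70.

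Markers of other cells that could hold these chemokines differed between genotypes. Summed over 10 basophil or mast cell genes, KO groups held 199.5 to 247.0 CPM and WT groups 152.5 to 162.1 CPM. Summed over 12 stromal or endothelial genes, KO groups held 986.3 to 1140 CPM and WT groups 768.7 to 854.5 CPM outside 4 h of Jurkat cells, where they held 2065 and 2076 CPM. The part of such cells in the chemokine differences was not tested. The monocyte or macrophage sum lay between 3866 and 4923 CPM with overlapping genotypes at 30 min of both stimuli.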

How the data were processed

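The deposited data are raw counts of reads, whole numbers, for each gene in 30 libraries, with gene symbols, Entrez identifiers and mm10 intervals, per the file headers. The submitters' processing notes name STAR 2.5, Subread, featureCounts 1.5.0-p1 and DESeq2, without their roles. Not given in the sources used here: the annotation, whether strand was used, and how reads of human cells or of several genes were treated. Per the labels' protocols, RNA came from Trizol and a DNase step, and libraries from the TruSeq v2 RNA kit.

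Groups and replicate numbers came from the sample titles. Genes were kept with edgeR's filterByExpr by group (14808 of 25611 rows, 99.99% of counts) and scaled with TMM. All groups entered 1 model with no covariate, and contrasts of group means were tested two-sided by quasi-likelihood in edgeR 4.0.16 (R 4.3.3). FDR is the Benjamini-Hochberg value over all genes, and genes with an FDR under 0.05 were called. The biological coefficient of variation was 0.0515, with 20 residual and 7.89 prior degrees of freedom. SE was taken as the size of the log2 change over the root of F, and intervals cover 95%. The pipeline was tested on simulated data.

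Contrasts built on the values that chose a member were fitted but are given without its test, more of them than first planned. The members, the gene lists and the tests were chosen with earlier results of these data known. Named genes are the 3 members, any gene of the 5 pathway lists, and the 4 genes of highest correlation with each member over 10 group means of log2 CPM (prior count 2), of at least 5 CPM in 1 group, without provisional symbols. Spliced lengths came from GENCODE M21 and promoters from RefSeq (GRCm38.p6). No replicate pair was identical, and their counts differed beyond sampling noise (chi-square per degree of freedom 2.22 to 126). The highest values, 121.4 and 126, came from the pairs that hold KO replicate 2 of 4 h Jurkat, and every other pair was at 15.73 or below. Alternatives were DESeq2's size factors, total counts, no filter, a stricter filter (5 CPM or more in any 3 libraries), a block for replicate number, DESeq2 1.42.0 as the test, a model of only the compared groups, and each library left out. The comparison of stimuli between genotypes at 30 min, the list counts under alternatives, other named genes with each library left out and CPM per kb were added after seeing the data.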

Additional observations from a re-analysis of the deposited data

How the results depend on the processing

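Of 399 runs of the 52 tested member results under other settings, 391 kept direction and call, as did 335 of 360 runs that left out a library. These include Cxcl2 between genotypes at 30 min of OVA, which is given above as a description. Depth limits Cxcl3 most, which had 2 to 13 counts in each untreated and each 30 min OVA library.

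Fitting only the compared groups ended the Cxcl3 calls in KO cells at 30 min of Jurkat cells: 3.845 against WT (FDR 0.0745), 4.129 against untreated (FDR 0.0565) and 3.468 against OVA (FDR 0.117). It made a call of Cxcl1 in KO cells between 30 min and 4 h of OVA (-0.497, FDR 0.0409). This fit rests on fewer samples. DESeq2 turned the sign of the Cxcl3 difference in response to 30 min of OVA (0.1405, untested). For KO minus WT, Jurkat cells against OVA at 30 min, Cxcl1 was called with no filter (1.005, FDR 0.0217), with the replicate block (1.013, FDR 0.0426) and with DESeq2 (1.003, FDR 0.0185), and Cxcl3 with DESeq2 (4.103, FDR 0.0393). The replicate block changed no other member call. The titles do not say that replicate numbers pair libraries, and same-numbered libraries did not deviate together: over 135 pairs the median correlation was 0.0041, and 11 exceeded 0.1. The cause of these changes was not tested.

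Leaving out 1 library changed a call or a sign in these ranges. For KO against WT, Cxcl3 ran from -0.7979 to 0.2247 in untreated cells and from 1.774 to 4.37 at 30 min of Jurkat cells, and Cxcl2 from 0.1389 to 0.4028 there. Against untreated cells, Cxcl3 ran from -0.5159 to 0.5067 (WT, 30 min Jurkat), 2.056 to 4.652 (KO, 30 min Jurkat) and 3.286 to 3.887 (KO, 4 h OVA). Cxcl3 in KO cells ran from 2.49 to 3.158 between the OVA times and from 1.416 to 4.012 for Jurkat cells against OVA at 30 min. Cxcl1 in WT cells ran from 0.4264 to 0.6171 for the latter. Differences in response ran from -0.6737 to 0.3694 (Cxcl3, 30 min OVA, untested), -0.485 to 0.1699 (Cxcl2, 4 h OVA), -0.8272 to 0.195 (Cxcl3, 4 h OVA) and -0.04772 to 0.2655 (Cxcl1, 4 h Jurkat, untested). Cxcl1 in the comparison of stimuli ran from 0.8038 to 1.138.

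Counts of genes called moved by over 1.5 times in some fits. With the compared groups alone they fell from 1370 to 891 for KO against WT at 30 min of Jurkat cells, from 1578 to 833 (WT) and 558 to 246 (KO) for 30 min of OVA, from 2514 to 1460 (KO, 30 min Jurkat) from 1514 to 734 (KO, Jurkat against OVA at 30 min) and from 631 to 337 (difference in response, 4 h Jurkat). With 1 library left out, KO against WT fell from 1477 to as few as 898 genes in untreated cells, from 1834 to 718 and 1861 to 1172 at 30 min and 4 h of OVA, and from 1370 to 708 and 3392 to 2189 at 30 min and 4 h of Jurkat cells. The lowest for 30 min of OVA against untreated were 903 in WT and 173 in KO cells. Genes called for the comparison of stimuli between genotypes numbered 11, from 1 with the compared groups alone to 105 with DESeq2, and 42 with no filter, 25 with the stricter filter and 35 with the replicate block. Genes called for the difference in response at 30 min of Jurkat cells numbered 1, and 22 with DESeq2, 7 with no filter and 0 with the stricter filter or the compared groups alone. Those at 4 h of OVA numbered 6, and 25 with DESeq2, 12 with the replicate block within genotype, 11 with no filter and 10 with the stricter filter.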
